A study of Mus musculus with 2 samples.

Results

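The genes of extracellular metalloproteinases and of their tissue inhibitors were followed in RNA from whole-layer back skin of C57BL6/J wild type mice, with 1 library of stretched skin and 1 library of control skin. Every symbol of the Mmp, Adam, Adamts and Timp families was taken from the count table, and a gene was kept when its count was above 3 in 1 or both of the libraries. Of the 79 symbols of these 4 families, 57 passed, out of 24421 symbols in the table and 16255 that passed the same minimum. The stretched skin had been under a skin-stretching device for 5 days at 33% strain, which the methods describe as an initial strain that was raised daily, and the control skin was taken at day 5 without strain. The study's methods describe female mice of 8 weeks with resting (telogen) hair follicles, and skin harvested without the area where the device was attached. The sources used here do not say whether animals were pooled. Without replicates, no difference could be set against a spread between samples, and p-values are not given. Mmp20, with 4 counts in control and 1 in stretched skin, lay just inside the minimum, and Adam3 and Mmp1b, each with 0 and 3 counts, lay just outside it. Mmp25, Mmp20 and Adamts13 passed the minimum in 1 library only, and the other members passed it in both.

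Matrix metalloproteinases (Mmp) are zinc-dependent enzymes, secreted or held at the cell surface, that cleave collagens, gelatin, proteoglycans and elastin. The Adam proteins sit in the cell membrane and release the outer parts of growth factors, cytokines and receptors, while the Adamts proteins are secreted and trim procollagens or cleave proteoglycans. The 4 tissue inhibitors of metalloproteinases (Timp) bind the active site of Mmp enzymes, and Timp3 also blocks Adam17 and several Adamts enzymes. In skin both enzymes and inhibitors are known from wound repair, inflammation and the remodelling of the dermis and the hair follicle.

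The libraries held 14152379 counts (control) and 11648655 counts (stretched), so that 3 counts correspond to 0.212 and 0.258 CPM, the count scaled by the library's total. Each ratio is the CPM of stretched skin over that of control skin on the log2 scale. It carries an exact 95% Clopper-Pearson interval, which covers counting error only. A gene is called higher or lower below only where this interval excludes 0, which compares these 2 libraries and not the conditions. Across the 16255 genes the median log2 ratio was -0.12, and with TMM scaling (edgeR) every log2 ratio would be 0.11 higher. Levels are compared between genes only as FPKM, the count that is also scaled by the gene's exon length. In whole skin, fewer cells of a type and less RNA per cell cannot be told apart.

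Of the 57 genes, 31 were higher in stretched skin, 5 were lower, and 21 had an interval that included 0. Among all genes the interval lay wholly above 0 for 18.1% and wholly below 0 for 33.5%. A ratio of at least 2-fold was reached upward by 10 of the 57 genes and downward by 2, where the background was 6.32% and 5.47% of all genes. The median log2 ratio of the 57 genes was 0.32. By the expression and fold thresholds of the study's methods, applied to FPKM computed from the counts with 1 added, 31 of the 57 genes passed the expression threshold. Of these, 5 were upregulated (Timp1, Mmp3, Adam8, Mmp19 and Adamts2) and 0 were downregulated, against 2.61% and 2.43% of the 10908 genes past that threshold. The smallest counts sit behind several of the largest ratios, and of the members counted 100 or more times in all, 5 were at least 2-fold higher.

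In the Mmp family 12 of 19 measured genes were higher and 0 were lower, with a median log2 ratio of 0.70. In the Adam family 8 of 15 were higher and 1 was lower (median 0.23), and in the Adamts family 9 of 19 were higher and 3 were lower (median 0.17). Of the 4 Timp genes, 2 were higher and 1 was lower (median 0.30). The summed CPM of the Mmp family went from 808 in control skin to 1401 in stretched skin, a log2 ratio of 0.79 (0.76 to 0.83). The same sum went from 530 to 679 for the Adam family (log2 ratio 0.36) and from 889 to 1169 for the Timp family (log2 ratio 0.39).

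**Figure D1:**
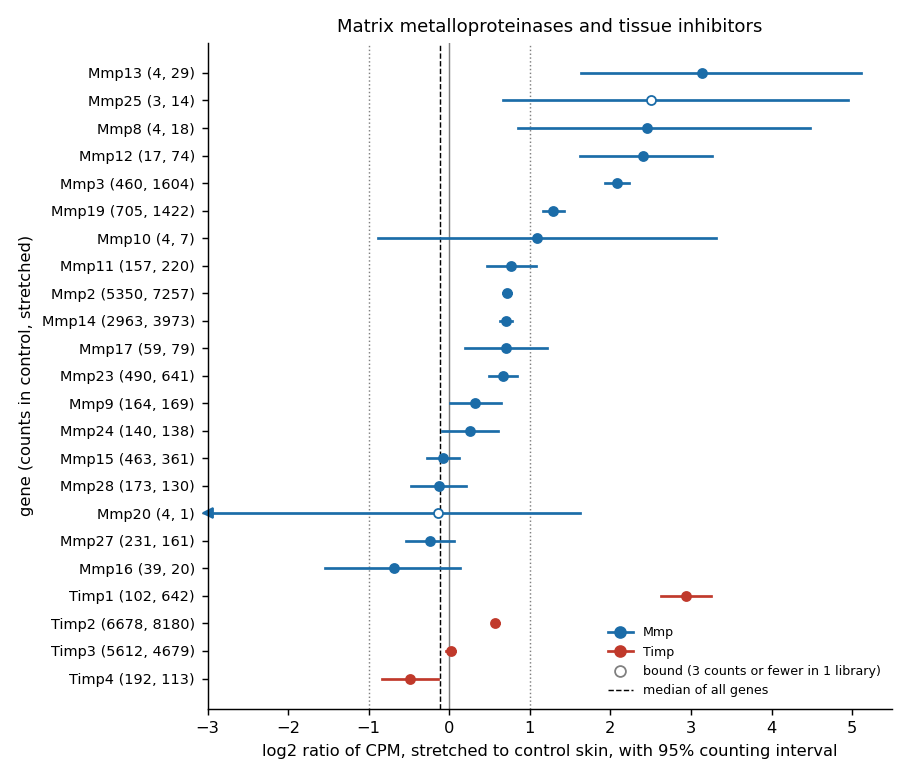
Log2 ratio of CPM, stretched over control skin, for each measured Mmp and Timp gene, with bars for the exact 95% counting interval, dotted lines at 2-fold, a dashed line at the median of all genes, and open symbols for genes with 3 or fewer counts in 1 library, whose count was set to 3. Mmp13 (3.14) and Timp1 (2.93) stand highest, and of the genes shown only Timp4 has an interval wholly below 0.

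Timp1, an inhibitor of most secreted metalloproteinases that acts poorly on several membrane-bound ones, showed the largest ratio of any member counted 100 or more times. It was counted 102 times in the control library and 642 times in the stretched library, which is 7.21 and 55.1 CPM. Stretched skin thus held 7.65-fold more, with a log2 ratio of 2.93 (2.63 to 3.25). The gene lies on chromosome X from 20870166 to 20874735 on the plus strand of mm10, within an intron of Syn1 on the opposite strand, and its exons overlap no other gene. Timp2, which both inhibits Mmp2 and takes part in its activation at the cell surface, went from 472 to 702 CPM on 6678 and 8180 counts (log2 ratio 0.57, 0.53 to 0.62).

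Timp3, the inhibitor that binds to the extracellular matrix and also blocks Adam17 and several Adamts enzymes, stood at 397 CPM in the control library and 402 CPM in the stretched library. Its 5612 and 4679 counts gave a log2 ratio of 0.02 (-0.04 to 0.07), which was 0.13 with TMM scaling, where its interval lay above 0. Exons of Syn3 on the opposite strand cover 21.3% of its exonic bases, and Syn3 itself had 47 and 34 counts. Timp4 was the only lower gene of the 4 Timp genes in stretched skin, with 13.6 CPM against 9.70 CPM on 192 and 113 counts (log2 ratio -0.48, -0.83 to -0.14). The adipocyte marker list was lower as well, in 5 of 5 genes and from 1189 to 753 summed CPM, and its part in the Timp4 value was not tested.

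The make-up of the inhibitor pool differed between the libraries. Per length, Timp2 was the most abundant of the 4 inhibitors, with 121 FPKM in control and 180 FPKM in stretched skin. Timp1 contributed 4.50% of the summed Timp FPKM in the control library and 21.2% in the stretched library. The share of Timp2 went from 67.2% to 61.5%, that of Timp3 from 27.0% to 16.8% and that of Timp4 from 1.28% to 0.561%. Timp1 was below Timp3 in control skin (8.12 against 48.7 FPKM) and above it in stretched skin (62.1 against 49.3 FPKM) when lengths were taken from all exons of a gene. With the length of the longest transcript, an alternative added after seeing the data, Timp1 stayed below Timp3 in stretched skin at 0.734 of its level.

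Gelatinases cut denatured collagen and the type IV collagen of basement membranes, and Mmp2 was by far the more abundant of the pair. Mmp2 (chromosome 8, 92827291 to 92853420) had 5350 counts in the control library and 7257 in the stretched library, or 378 and 623 CPM. This is a log2 ratio of 0.72 (0.67 to 0.77), and at 112 and 185 FPKM it stood next to Timp2 at the top of all members. Mmp9 went from 11.6 to 14.5 CPM on 164 and 169 counts, and its interval lay only just above 0 (log2 ratio 0.32, 0.0056 to 0.64). Mmp14, the membrane-type enzyme that activates the Mmp2 proenzyme, rose alongside Mmp2 from 209 to 341 CPM on 2963 and 3973 counts (log2 ratio 0.70, 0.64 to 0.77).

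Together Mmp2 and Mmp14 made up 66.4% of the summed Mmp FPKM in control and 59.1% in stretched skin. The fibroblast list was higher in 7 of 7 genes, from 41013 to 77211 summed CPM, from 11879 to 23813 CPM for Col1a1 but with log2 ratios of 0.06 for Dcn and 0.18 for Pdgfra. The part of that list in the Mmp2, Mmp14 and Timp2 values was not tested. The other membrane-type genes were less abundant. Mmp17 was higher, at 4.17 and 6.78 CPM (log2 ratio 0.70, 0.20 to 1.21). Mmp24 had 9.89 and 11.8 CPM and Mmp15 had 32.7 and 31.0 CPM, with intervals that included 0, although with TMM scaling that of Mmp24 lay above 0. Mmp16, with 39 and 20 counts, had 2.76 and 1.72 CPM (log2 ratio -0.68, -1.54 to 0.13).

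Stromelysins degrade proteoglycans, laminin and fibronectin and activate other Mmp proenzymes. Mmp3 (stromelysin-1, chromosome 9, 7445822 to 7455975, plus strand) was counted 460 times in the control library and 1604 times in the stretched library. Its level went from 32.5 to 138 CPM, 4.24-fold higher (log2 ratio 2.08, 1.93 to 2.24). Per length, Mmp3 stood at 18.0 and 76.5 FPKM and Mmp14 at 35.1 and 57.2 FPKM. The order of the pair in stretched skin depends on the length used, since with the longest transcript Mmp3 stood at 0.726 of the level of Mmp14. The FPKM of Mmp3 was 0.161 of that of Mmp2 in control skin and 0.414 of it in stretched skin. Mmp11 (stromelysin-3, which furin activates inside the cell) went from 11.1 to 18.9 CPM on 157 and 220 counts (log2 ratio 0.77, 0.47 to 1.07). Mmp10 (stromelysin-2) had 4 and 7 counts, and a change was not detectable at this depth (log2 ratio 1.09, -0.89 to 3.31).

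**Figure D2:**
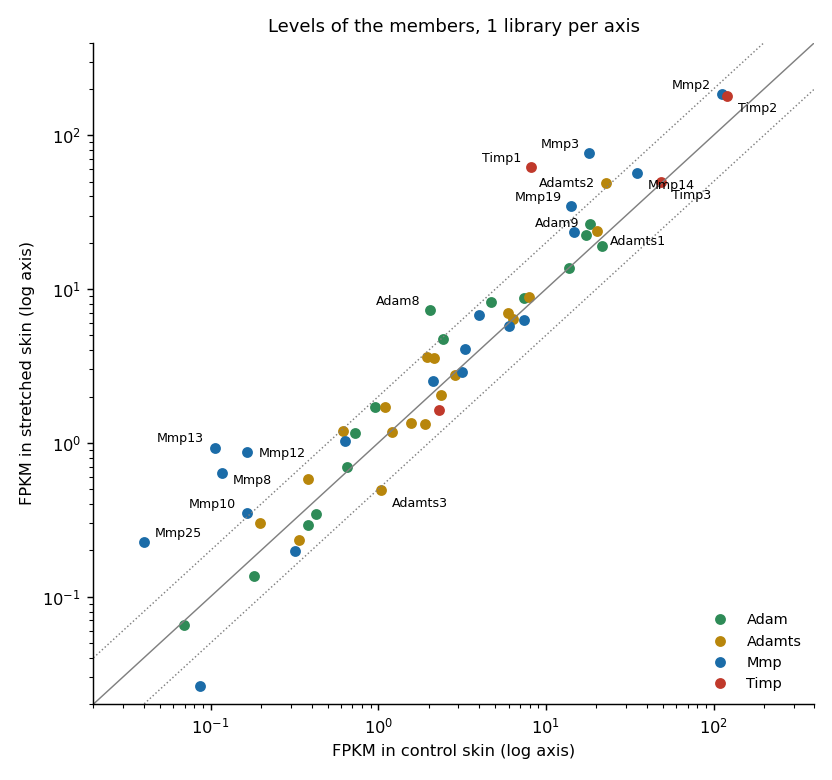
FPKM of each member in control skin (x axis, log scale) and in stretched skin (y axis, log scale), with the diagonal for equal levels, dotted lines at 2-fold, and names for the 10 most abundant members and those past 2-fold. Timp1 and Mmp3 lie above the upper dotted line at 62.1 and 76.5 FPKM in stretched skin, and Adamts13, with 0 counts in stretched skin, is not drawn.

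The collagenases, which open the triple helix of fibrillar collagen, were rare in both libraries. Mmp13, the main interstitial collagenase of rodents, had 4 counts in control and 29 in stretched skin, or 0.283 and 2.49 CPM. The log2 ratio of 3.14 had a wide interval from 1.63 to 5.11, and it was 1.44 when 1 CPM was added to both values. Mmp8, the collagenase first known from neutrophils, had 4 and 18 counts, at 0.283 and 1.55 CPM (log2 ratio 2.45, 0.85 to 4.47), and its ratio was 0.99 with 1 CPM added, under 2-fold. Both collagenases stood below 1 FPKM in stretched skin (0.931 for Mmp13 and 0.637 for Mmp8), far under the gelatinase Mmp2. The other collagenase symbols, Mmp1a and Mmp1b, had 0 and 0 counts and 0 and 3 counts.

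Mmp12, the elastase of macrophages, had 17 counts in the control library and 74 in the stretched library, and its level was 1.20 and 6.35 CPM (log2 ratio 2.40, 1.63 to 3.26). Mmp25, a membrane-type enzyme of leukocytes anchored by glycosylphosphatidylinositol, had 3 and 14 counts, at 0.212 and 1.20 CPM (log2 ratio 2.50, 0.66 to 4.94). Its control count is at the floor of 3, and with 1 CPM added its ratio was 0.86, under 2-fold. Markers of macrophages were also higher, in 11 of 12 genes and from 945 to 2235 summed CPM, with a median log2 ratio of 1.34. Of the neutrophil list, 4 of 5 measured genes were higher and the summed level went from 14.8 to 67.9 CPM. The granule genes of that list were at or near 0, with 0 and 3 counts for Mpo, 2 and 2 for Elane, 0 and 1 for Ltf, 0 in both libraries for Ngp, and 6 and 3 for Camp, the measured gene of the list that was not higher. The part of these cells in the Mmp8, Mmp12, Mmp13 and Mmp25 values was not tested.

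Mmp13, Mmp12, Mmp3, Mmp10 and Mmp8 are neighbours. They belong to a run of 10 Mmp genes on chromosome 9 between 7272514 and 7699585 (mm10), which lie in the order Mmp13, Mmp12, Mmp1b, Mmp3, Mmp1a, Mmp10, Mmp8, Mmp27, Mmp20 and Mmp7. The higher genes of the run were Mmp13, Mmp12, Mmp3 and Mmp8. Further along, Mmp27 had 16.3 CPM in control and 13.8 CPM in stretched skin on 231 and 161 counts (log2 ratio -0.24, -0.54 to 0.06). Mmp20, the enamel protease, had 4 and 1 counts, and its interval from -7.34 to 1.62 leaves its direction unknown. Mmp7 and Mmp1a had 0 counts in both libraries, as did Mmp21, which lies elsewhere.

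**Figure D3:**
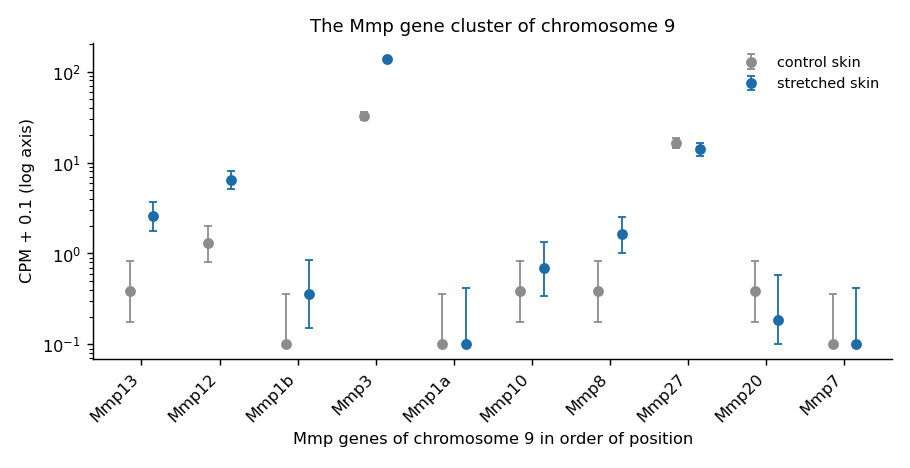
CPM with 0.1 added (log axis) of the 10 Mmp genes of the chromosome 9 run in control skin (grey) and stretched skin (blue), in order of position, with bars for exact 95% Poisson intervals of each count. Mmp13, Mmp12, Mmp3 and Mmp8 are higher in stretched skin, Mmp3 stands far above its neighbours at 138 CPM, and Mmp27 is the other well-counted gene.

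The sequences before the start of Mmp3, Mmp13, Mmp12 and Mmp10 are shown because they hold the same short motif, that of AP-1, close to a listed start. Timp1, which does not hold it, is shown beside them. Mmp8, Mmp27 and Mmp20 of the same run were searched too, did not hold it and are not printed. Sequences were taken from RefSeq promoters (GRCm38.p6), which held 36 of the 57 members. The 140 bases before the start are printed 5′ to 3′ on the plus strand, at chr9:7445682-7445821 for Mmp3, chr9:7272374-7272513 for Mmp13, chr9:7347234-7347373 for the downstream of 2 listed Mmp12 starts, chr9:7502202-7502341 for Mmp10 and chrX:20870026-20870165 for Timp1. Capitals mark the motif bound by AP-1 (TGAGTCA, or TGACTCA where it lies on the other strand) and that of PEA3-type Ets factors (AGGAAG, or CTTCCT). Neither motif contains the other.
Mmp3: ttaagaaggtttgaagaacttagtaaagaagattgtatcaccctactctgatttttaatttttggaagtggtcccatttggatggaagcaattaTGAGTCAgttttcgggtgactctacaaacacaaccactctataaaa
Mmp13: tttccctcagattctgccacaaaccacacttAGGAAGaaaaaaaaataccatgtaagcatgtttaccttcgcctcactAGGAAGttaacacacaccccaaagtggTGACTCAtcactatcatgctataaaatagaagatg
Mmp12: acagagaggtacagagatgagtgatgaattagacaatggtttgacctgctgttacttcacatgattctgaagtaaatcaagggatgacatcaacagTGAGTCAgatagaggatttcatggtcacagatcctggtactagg
Mmp10: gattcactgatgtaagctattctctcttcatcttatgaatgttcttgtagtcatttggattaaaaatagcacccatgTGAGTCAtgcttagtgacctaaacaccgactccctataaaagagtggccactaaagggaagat
Timp1: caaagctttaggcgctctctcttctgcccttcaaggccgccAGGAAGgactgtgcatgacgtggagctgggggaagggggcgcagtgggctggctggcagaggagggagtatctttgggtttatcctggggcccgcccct
The AP-1 letters begin 46 bases before the start of Mmp3, 35 before that of Mmp13, 44 before the printed start of Mmp12 and 63 before that of Mmp10. In windows from 250 bases before to 50 bases after a start, both strands searched, these letters occurred in 5 of the 36 members (13.9%), namely Mmp3, Mmp13, Mmp12, Mmp10 and Adam19. Of all 27025 genes with a promoter in that source, 5.95% held them. The PEA3 letters occurred in 14 of the 36 members (38.9%) and in 38.4% of all genes, and Timp1 held them without the AP-1 letters. The 140 bases before the upstream Mmp12 start held 0 AP-1 matches. These matches describe letters and not sites in use.

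Among the remaining Mmp genes, Mmp19, a widely expressed enzyme that cleaves components of the basement membrane, went from 49.8 to 122 CPM on 705 and 1422 counts (log2 ratio 1.29, 1.16 to 1.43). Its value is uncertain, because exons of Tmem198b and Gm47093 on the opposite strand cover 28.3% of its exonic bases and the library kit does not mark strand. Tmem198b had 443 and 653 counts (log2 ratio 0.84, 0.66 to 1.02). Mmp23, which lacks the hemopexin domain of most of the family, went from 34.6 to 55.0 CPM on 490 and 641 counts (log2 ratio 0.67, 0.50 to 0.84). Mmp28 (epilysin), known from keratinocytes, had 12.2 and 11.2 CPM on 173 and 130 counts (log2 ratio -0.13, -0.47 to 0.21). In the keratinocyte list 4 of 7 genes were higher and 2 were lower, with a median log2 ratio of 0.02 and a range from -0.79 to 0.28.

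On the FPKM scale the sums of enzymes and of inhibitors were both higher in stretched skin. The summed Mmp FPKM was 222 in the control library and 409 in the stretched library, and the summed Timp FPKM was 180 and 293. Mmp genes stood at 1.23 times the Timp genes in control skin and at 1.40 times in stretched skin. The same quotient was 0.507 and 0.394 for Adam genes, and 0.449 and 0.394 for Adamts genes. These sums describe RNA of 1 library each, and amounts of protein or activity were not measured in these data.

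Adam8, a protease of leukocytes that sheds adhesion molecules, had the largest ratio of the Adam genes. It had 133 counts in control and 395 in stretched skin, which is 9.40 and 33.9 CPM, 3.61-fold higher (log2 ratio 1.85, 1.56 to 2.15). Like Mmp12, it was higher in the library in which the macrophage list was higher in 11 of 12 genes, and the part of that list in its value was not tested. Adam12 and Adam19, the meltrins known from muscle and mesenchyme, were also higher. Adam12 went from 25.8 to 49.96 CPM (log2 ratio 0.95, 0.76 to 1.15, and 1.07 with TMM scaling, past 2-fold) and Adam19 from 33.6 to 58.5 CPM (log2 ratio 0.80, 0.63 to 0.97).

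In the same pair of libraries all 6 genes of the developing muscle list were higher, from 56.3 to 1241 summed CPM, and their part in the Adam12 and Adam19 values was not tested. Adam9, an abundant sheddase, went from 75.7 to 110 CPM on 1072 and 1276 counts and from 18.4 to 26.6 FPKM (log2 ratio 0.53, 0.41 to 0.65). Adam15 was higher by 0.39 and Adam33 by 0.23 on the log2 scale. The exons of Adam15 overlap those of an antisense gene over 20.6% of their bases, so its reads cannot be told apart by strand.

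Adam10 and Adam17, the principal sheddases of Notch receptors and of tumour necrosis factor and epidermal growth factor receptor ligands, were not among the higher genes. Adam17 had 98.6 CPM in the control library and 98.3 CPM in the stretched library on 1395 and 1145 counts, a log2 ratio of -0.004 (-0.12 to 0.11). The ratio, though not its whole interval, was above 0 with other scalings. Adam10 went from 107 to 93.4 CPM on 1513 and 1088 counts (log2 ratio -0.19, -0.31 to -0.08). With TMM scaling the log2 ratio of Adam10 was -0.08, and its interval then included 0. With scaling by total counts, Adam10 was the only lower gene of the family.

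Of the Adam genes without protease activity, which serve in adhesion and at synapses, Adam23 (17.2 and 30.6 CPM) and Adam11 (4.10 and 6.52 CPM) were higher. Adam22 had 5.44 and 4.21 CPM and an interval that included 0. Adam genes known mainly from testis and epididymis were nearly absent, since 3 of 21 symbols passed the minimum and 13 had 0 counts in both libraries. The 3 were Adam1a, Adam4 and Adam5, each with an interval that included 0, and Adam1a shares 77.0% of its 76-base stretches with other sequence and is uncertain. Adam28, with 9 and 7 counts, was too rare for a comparison.

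**Figure D4:**
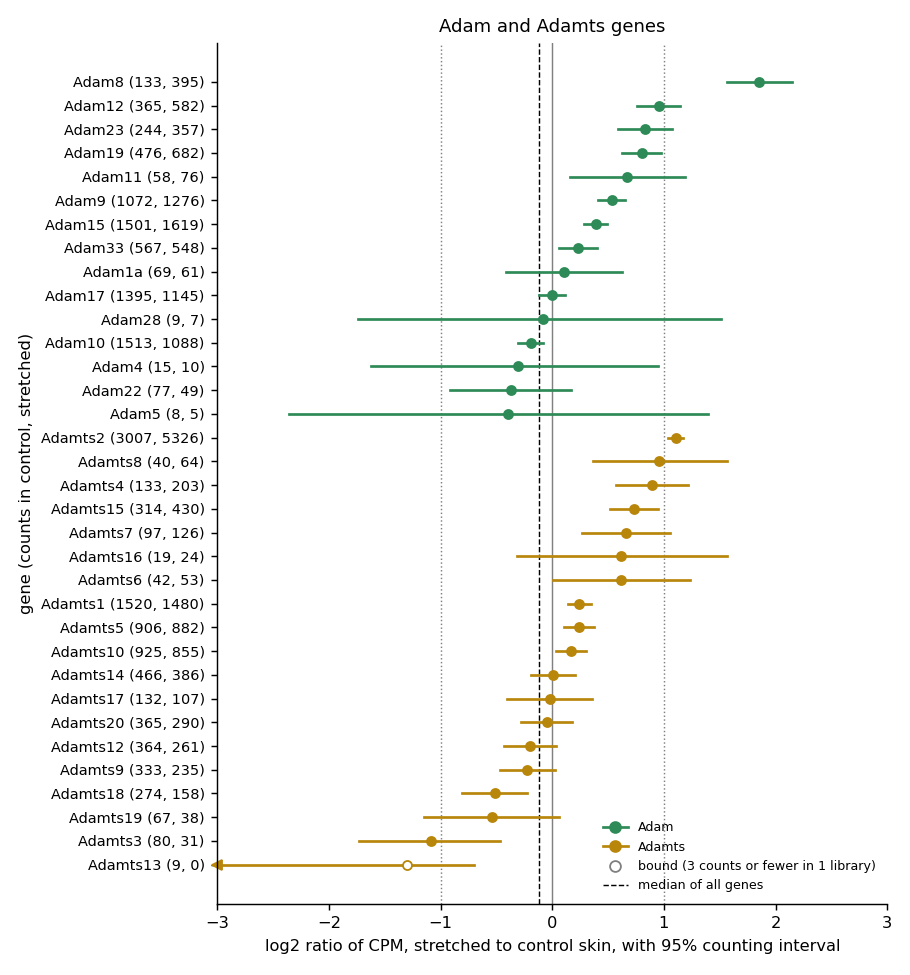
Log2 ratio of CPM, stretched over control skin, for each measured Adam and Adamts gene, with bars for the exact 95% counting interval, dotted lines at 2-fold, a dashed line at the median of all genes, and an open symbol for Adamts13, whose 0 counts in stretched skin were set to 3. Adam8 (1.85) and Adamts2 (1.11) lie above the 2-fold line, and Adamts3 (-1.09) and the bound of Adamts13 lie below it.

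The procollagen N-propeptidases Adamts2, Adamts3 and Adamts14 remove the amino-terminal propeptides of fibrillar procollagens, and they moved apart. Adamts2 (chromosome 11, 50602084 to 50807573), the main enzyme for types I and III procollagen in skin, had 3007 counts in control and 5326 in stretched skin. Its level was 212 and 457 CPM, a log2 ratio of 1.11 (1.04 to 1.17). Adamts14 stood at 32.9 and 33.1 CPM (log2 ratio 0.01, -0.19 to 0.21). Adamts3, also known for processing Vegfc, fell from 5.65 to 2.66 CPM on 80 and 31 counts (log2 ratio -1.09, -1.73 to -0.47), and with TMM scaling its ratio of -0.97 was under 2-fold.

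Adamts2 carried the sum of its family. It made up 28.1% of the summed Adamts FPKM in the control library and 42.4% in the stretched library, at 22.8 and 49.0 FPKM. The summed Adamts CPM went from 643 to 940, a log2 ratio of 0.55 (0.51 to 0.59), and without Adamts2 this ratio was 0.17.

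Proteoglycanases of the family cleave aggrecan and versican, and 5 of 7 were higher while 0 were lower. The shares of all genes were 18.1% and 33.5%. Adamts8 had 2.83 and 5.49 CPM (log2 ratio 0.96, 0.37 to 1.57) and Adamts4 had 9.40 and 17.4 CPM (log2 ratio 0.89, 0.57 to 1.22). Adamts15 had 22.2 and 36.9 CPM (log2 ratio 0.73, 0.52 to 0.95). The 2 most counted of the group had smaller ratios. Adamts1 went from 107 to 127 CPM on 1520 and 1480 counts and from 20.3 to 24.0 FPKM (log2 ratio 0.24, 0.14 to 0.35), and Adamts5 from 64.0 to 75.7 CPM (log2 ratio 0.24, 0.11 to 0.38). Adamts9 and Adamts20, which clear versican in developing skin, had log2 ratios of -0.22 and -0.05 with intervals that included 0.

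Adamts7 was higher among the other members (6.85 and 10.8 CPM, log2 ratio 0.66, 0.27 to 1.06), as were Adamts6 and Adamts10, which are linked to fibrillin microfibrils. The log2 ratio of Adamts10 was 0.17 (0.03 to 0.30), and that of Adamts6 was 0.62 on 42 and 53 counts, with an interval only just above 0 (0.0049 to 1.24). Adamts18 was lower, at 19.4 and 13.6 CPM on 274 and 158 counts (log2 ratio -0.51, -0.81 to -0.23). Adamts13, the protease of von Willebrand factor, had 9 counts in control and 0 in stretched skin. It was 2.47-fold lower with the 0 raised to the floor of 3 counts. The upper end of its log2 interval was -0.70, under 2-fold, as was its ratio of -0.71 with 1 CPM added. Adamts12, Adamts16, Adamts17 and Adamts19 had intervals that included 0, with log2 ratios from -0.54 to 0.62.

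Regulators outside the 4 families were described by lists of partner genes. Of 18 genes that activate these enzymes or assist their activation, 7 were higher and 4 were lower, with a median log2 ratio of 0.14. By the same interval 18.1% of all genes were higher and 33.5% were lower. Plaur, the receptor of urokinase, went from 8.34 to 20.1 CPM on 118 and 234 counts (log2 ratio 1.27, 0.94 to 1.60). Urokinase itself (Plau) was higher by 0.55, tissue plasminogen activator (Plat) by 0.49 and the proenzyme convertase Furin by 0.18 on the log2 scale. Rhbdf2, which carries Adam17 to the cell surface, was lower at 93.8 and 69.3 CPM (log2 ratio -0.44, -0.57 to -0.31).

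Of the 5 measured genes among 7 other inhibitors, 1 was higher and 1, Spock1 (35 and 14 counts, log2 ratio -1.04, -2.05 to -0.11), was lower. Tfpi2, a Kunitz-type inhibitor of plasmin, went from 2.69 to 7.81 CPM on 38 and 91 counts (log2 ratio 1.54, 0.98 to 2.13). Reck, a membrane-anchored inhibitor of several Mmp enzymes, had 55.1 and 52.2 CPM (log2 ratio -0.08, -0.23 to 0.08). Among 11 measured related proteins, 5 were higher and 3 were lower, where the shares of all genes were 18.1% and 33.5%. Adamtsl2, a secreted protein of the Adamts-like group without a protease domain, went from 8.34 to 32.7 CPM on 118 and 381 counts (log2 ratio 1.97, 1.67 to 2.28). Papln (papilin) fell from 11.5 to 4.81 CPM on 163 and 56 counts (log2 ratio -1.26, -1.73 to -0.81), and Mme (neprilysin) fell from 30.0 to 13.9 CPM on 425 and 162 counts (log2 ratio -1.11, -1.38 to -0.85). Bmp1, the procollagen C-proteinase, was higher by 0.31 on the log2 scale.

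The 9 hair shaft markers were all lower in stretched skin, from 1562 to 192 summed CPM. The skeletal muscle list was lower in 7 of 9 genes and higher in 2, Myh1 and Myh2. The endothelial list was higher in 3 of 5 genes and lower in 1 (median log2 ratio 0.50), the mast cell list higher in 5 of 7 and lower in 1 (0.51), and the nerve list higher in 2 of 4 and lower in 0 (0.32). The part of hair, muscle, vessels, mast cells and nerve in the values of the metalloproteinase genes was not tested.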

How the data were processed

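Whole-layer back skin of mice was sequenced in 1 library of stretched skin and 1 library of control skin. The authors deposited raw read counts per gene symbol, whole numbers without normalization. According to the methods and the submitters' processing notes, the reads (single-end, 76 bases) passed quality filtering by FASTX-Toolkit before TopHat2 placed them on mm10. The counter, its annotation and its use of strand are not given in the sources used here, and the library kit does not mark strand.

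CPM, FPKM (union of exons, GENCODE M21) and log2 ratios with exact 95% Clopper-Pearson intervals were computed from the counts. Symbols were matched by name (23384) or synonym (670), 367 had no length, and all 57 members matched by name. For the ratio, counts up to 3 were raised to 3. The intervals were tested on simulated data. Positions follow GENCODE on mm10 and start at 1. A run of neighbouring genes joins family members with at most 1 Mb between them.

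The study's call was applied to FPKM with 1 added, with a product of both values above 10 and a fold of at least 2 or at most 0.5. Values in both libraries were given for every Timp gene, Mmp genes counted 20 or more times in all, members counted 100 or more times with a ratio of at least 2-fold, the 10 members highest in FPKM, and members with 3 or fewer counts in 1 library and a bound of at least 2-fold. Other members named were chosen for their family or role after their values were seen. The members and lists were chosen with earlier results of these data known.

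The alternatives were 4 other scalings, minimums of 20 or 100 counts in all, 1 CPM added, leaving out genes whose exons overlap another gene by 10% or more, leaving out the most counted member, and other settings of the study's call. Protein features were not analysed here. The values of 1 partner gene are not reported here. The software was scipy 1.17.1, numpy 2.4.6, matplotlib 3.10.9 and pandas 2.3.3 under Python 3.11.15, with edgeR 4.0.16 and DESeq2 1.42.0 under R 4.3.3 for scaling factors only.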

Additional observations from a re-analysis of the deposited data

How the results depend on the processing

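No paired analysis was possible because stretched and control skin had 1 library each, which also meant that no library could be left out. Other scalings raised every log2 ratio by 0.11 (TMM), 0.11 (median of ratios), 0.12 (upper quartile) or 0.06 (totals without the 50 most counted genes). The summed Mmp ratio of 0.79 became 0.91, 0.91, 0.91 and 0.86 in that order, the Adam ratio of 0.36 became 0.47, 0.47, 0.47 and 0.42, the Adamts ratio of 0.55 became 0.66, 0.66, 0.67 and 0.61, and the Timp ratio of 0.39 became 0.51, 0.51, 0.51 and 0.46. The Timp median of 0.30 became 0.41, 0.41, 0.41 and 0.36. Without the most counted member, the summed ratio was 0.86 for Mmp (without Mmp2), 0.17 for Adamts (without Adamts2) and 0.16 for Timp (without Timp2). Without genes that overlap another gene it was 0.30 for Adam and 0.64 for Timp, and the Timp median was 0.57. The 10 members at least 2-fold higher became 5 with a minimum of 100 counts in all, 8 with a minimum of 20, 7 with 1 CPM added, 9 without overlapping genes, 13 with TMM, median of ratios or upper quartile scaling, and 12 without the 50 most counted genes in the totals. The 2 members at least 2-fold lower became 1 with TMM, median of ratios or upper quartile scaling, 1 with a minimum of 20 or 100 counts, and 0 with 1 CPM added. The member lost with the scalings was Adamts3. The members gained among those at least 2-fold higher were Adam12, Adamts8 and, except without the 50 most counted genes in the totals, Adamts4. The count of genes with an interval above 0 was 31, and 33 with TMM, median of ratios or upper quartile scaling (Timp3 and Mmp24 added) and 32 without the 50 most counted genes in the totals (Timp3 added).

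Of 285 ratios of the 57 genes under other scalings or with 1 CPM added, 257 moved by less than their counting interval allows and 28 moved by more. Adam17, Adam28, Adamts17, Adamts20 and Mmp15, whose intervals included 0, changed sign. The study's call gave 4 upregulated members with its expression threshold raised to 100 (without Adam8), and 4 without genes that overlap another gene (without Mmp19). With the longest transcript, chosen after seeing the data, Timp1 stood at 0.0972 of the FPKM of Timp3 in control skin, in place of 0.167, and at 0.734 in stretched skin, in place of 1.26. Mmp3 then stood at 0.279 and 0.726 of Mmp14, in place of 0.514 and 1.34, and the Timp1 share of the Timp FPKM was 3.68% and 18.4%. Ratios of genes under about 20 counts are limited by depth.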
